A study of Mus musculus with 8 samples.

Results

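The genes described here are 8 of the 22558 gene symbols in the deposited tables, chosen by name as receptors for extracellular nucleotides and the surface enzymes that break those nucleotides down. They comprise 4 P2Y receptors (P2ry12, P2ry13, P2ry14 and P2ry6), 2 P2X channels (P2rx4 and P2rx7) and 2 ectonucleotidases (Entpd1 and Nt5e). Each has 1 row in every library, and all 8 passed the filter of at least 1 FPKM (fragments scaled to transcript length and library depth) in at least 4 of 8 libraries. Nt5e met that filter through the macrophage libraries alone. The study profiled RNA from microglia, the resident macrophages of neural tissue, in 4 libraries numbered 1 to 4, and from infiltrating macrophages in 4 libraries numbered 5 to 8. Both groups came from retina on day 7 after injury, in mice of about 5 months on a mixed background of C57BL/6 and 129. Every mouse was Msi1-CreERT2/+, with a Cre that tamoxifen switches on and that is driven from Msi1, and R26R-DTA/+, which makes diphtheria toxin A in cells where Cre has acted. The labels do not say what the injury was, and no uninjured or Cre-free mice were analysed here. Macrophage titles begin with GFP, although no GFP allele is in the labelled genotype, and the way in which either population was sorted is not given in the sources used here. Libraries are not tied to animals in the labels. The p-values therefore reflect the spread among these libraries, which may be technical.

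Cells under stress or dying release ATP and other nucleotides, and neighbouring phagocytes read them through P2 receptors. P2Y receptors are coupled to G proteins, whereas P2X receptors are cation channels opened by ATP itself. The ectonucleotidase CD39, encoded by Entpd1, removes phosphates from ATP and ADP to leave AMP, and CD73, encoded by Nt5e, turns AMP into adenosine, which acts on a separate family of adenosine receptors. In neural tissue P2ry12 is widely used as a marker of resident microglia, whose processes it steers towards sources of ATP and ADP.

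Values were compared on the log2(FPKM + 1) scale with limma, two-sided, over 9352 genes, and genes are named as called where the Benjamini-Hochberg adjusted p was below 0.05. A positive log2 fold change marks a higher level in macrophages. On this scale the change of a gene near 0 FPKM is understated. Of all genes tested 2.34% were called, 0.695% lower and 1.65% higher in macrophages, 7.63% had no overlap between the populations, and 15% had an unadjusted p below 0.05; the median log2 fold change of all tested genes was 0.37. Approximate depth was 11.2 M fragments in microglia 1 and 19.5 to 24.5 M in the other libraries, at which 1 fragment on a 2 kb transcript equals 0.02 to 0.045 FPKM. The labels were checked against marker lists. Of 10 microglial markers 4 were called lower in macrophages (Sall1, Siglech, Gpr34 and Sparc) and 0 higher. Their summed levels were 2523 to 3883 FPKM in microglia and 690 to 2371 in macrophages. Sall1 and Sparc did not exceed 0.242 FPKM in any macrophage library, so they passed the filter through the microglial libraries alone. Of 7 monocyte markers found, 5 were called higher, with sums of 8.32 to 9.31 FPKM in microglia and 80.1 to 1045 in macrophages, lowest in macrophage 7. Among these 5, Itga4 (at most 0.564 FPKM in microglia) passed through the macrophage libraries alone. For Sall1, Sparc and Itga4 the filter fixed the direction, which therefore adds nothing to their calls. Y-linked transcripts (Ddx3y, Eif2s3y, Kdm5d and Uty) summed to 11.7 to 25.8 FPKM in microglia 1 to 3 but to at most 1.97 in microglia 4 and the macrophages, and Xist, which is expressed from the inactive X chromosome, was at most 0.000779 FPKM in microglia 1 to 3 and at 4.78 to 7.94 in microglia 4 and the macrophages. The populations may therefore differ in the sex of the mice, and for microglia 1 to 3 this cannot be told apart from the cell population. Microglia 2 held the fewest genes at 1 FPKM or more, 5995 against 8172 to 10287 elsewhere, and erythroid markers summed to 2437 FPKM in microglia 3 against at most 165 elsewhere. In these bulk samples, fewer cells of a type and less RNA per cell cannot be told apart.

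Of the 6 receptor genes, P2ry6 alone has no other member on its chromosome. In the mm9 build used by the files, P2ry14, P2ry13 and P2ry12 sit on the minus strand of chromosome 3 within 148.2 kb, from 58918547 to 59066753, inside the locus of Med12l (58810900 to 59122334), a Mediator subunit gene on the plus strand. P2rx7 (123093920 to 123141441) and P2rx4 (123157566 to 123179051) follow each other on the plus strand of chromosome 5. P2ry6 is on chromosome 7 (108086148 to 108112880), beside P2ry2, Entpd1 on chromosome 19 (40734284 to 40816092) and Nt5e on chromosome 9 (88222447 to 88266927). The RefSeq promoter table (GRCm38.p6) matched 7 of the 8 members, with P2ry6 not among them, and each of their promoter sequences was found once in the mm9 genome. The promoters shown are those of the 2 members called below, P2ry12 and Nt5e, and of P2ry13, which starts 5388 bases from the end of P2ry12 and was not called. Each is the 250 bases before the start, 5′ to 3′ on the gene's strand, with capitals at matches to 4 motifs searched on both strands: GGAAGT, the core bound by ETS factors such as PU.1; TGANTCA, the AP-1 site; GGGCGG, the GC box; and TATAAA, the TATA box.
P2ry12, chr3:59066908-59067157, minus strand: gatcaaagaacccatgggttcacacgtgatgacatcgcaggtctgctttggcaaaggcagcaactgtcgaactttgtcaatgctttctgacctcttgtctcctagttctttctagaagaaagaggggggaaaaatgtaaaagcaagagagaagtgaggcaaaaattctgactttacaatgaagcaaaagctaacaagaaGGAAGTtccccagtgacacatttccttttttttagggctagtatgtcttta
P2ry13, chr3:59014805-59015054, minus strand: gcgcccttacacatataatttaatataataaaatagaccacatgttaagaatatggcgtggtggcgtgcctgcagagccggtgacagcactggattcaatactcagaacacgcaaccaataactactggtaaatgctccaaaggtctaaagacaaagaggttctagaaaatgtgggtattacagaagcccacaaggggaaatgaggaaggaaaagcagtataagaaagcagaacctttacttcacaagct
Nt5e, chr9:88222197-88222446, plus strand: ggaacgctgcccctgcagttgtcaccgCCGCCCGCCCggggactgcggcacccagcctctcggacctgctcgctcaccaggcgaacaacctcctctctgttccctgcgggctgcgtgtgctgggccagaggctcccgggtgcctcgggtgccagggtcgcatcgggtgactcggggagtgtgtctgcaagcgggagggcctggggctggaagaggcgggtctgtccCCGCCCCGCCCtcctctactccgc

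The P2ry12 promoter held 1 GGAAGT, whose first base is at -51 from the start. The P2ry13 promoter held no match to the 4 motifs in this window. The Nt5e promoter held 4 positions of GGGCGG, all on the opposite strand and overlapping in pairs, at -223, -219, -24 and -19. Among 27025 promoters of the same length, 1 per gene, 20% held GGAAGT, 6.87% TGANTCA, 32.9% GGGCGG and 13% TATAAA, so a GGAAGT or a GC box is common. The bases G and C made up 41.6% of the P2ry12 and P2ry13 promoters and 72% of that of Nt5e, with 3, 5 and 21 CG dinucleotides. These matches describe the sequence and are not evidence of binding.

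Of the 8 members, 2 were called, against the 2.34% of all genes. P2ry12 was lower in macrophages and Nt5e was higher. The libraries of both also did not overlap between populations, which for Nt5e follows from the filter, since it passed through the macrophage libraries alone. The other 6 overlapped and were not called, and none of them had an unadjusted p below 0.05, a level that 15% of all genes reached. Members did not share a direction: 3 had negative and 5 positive fold changes, with a median of 0.32 beside 0.37 for all genes.

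**Figure D1:**
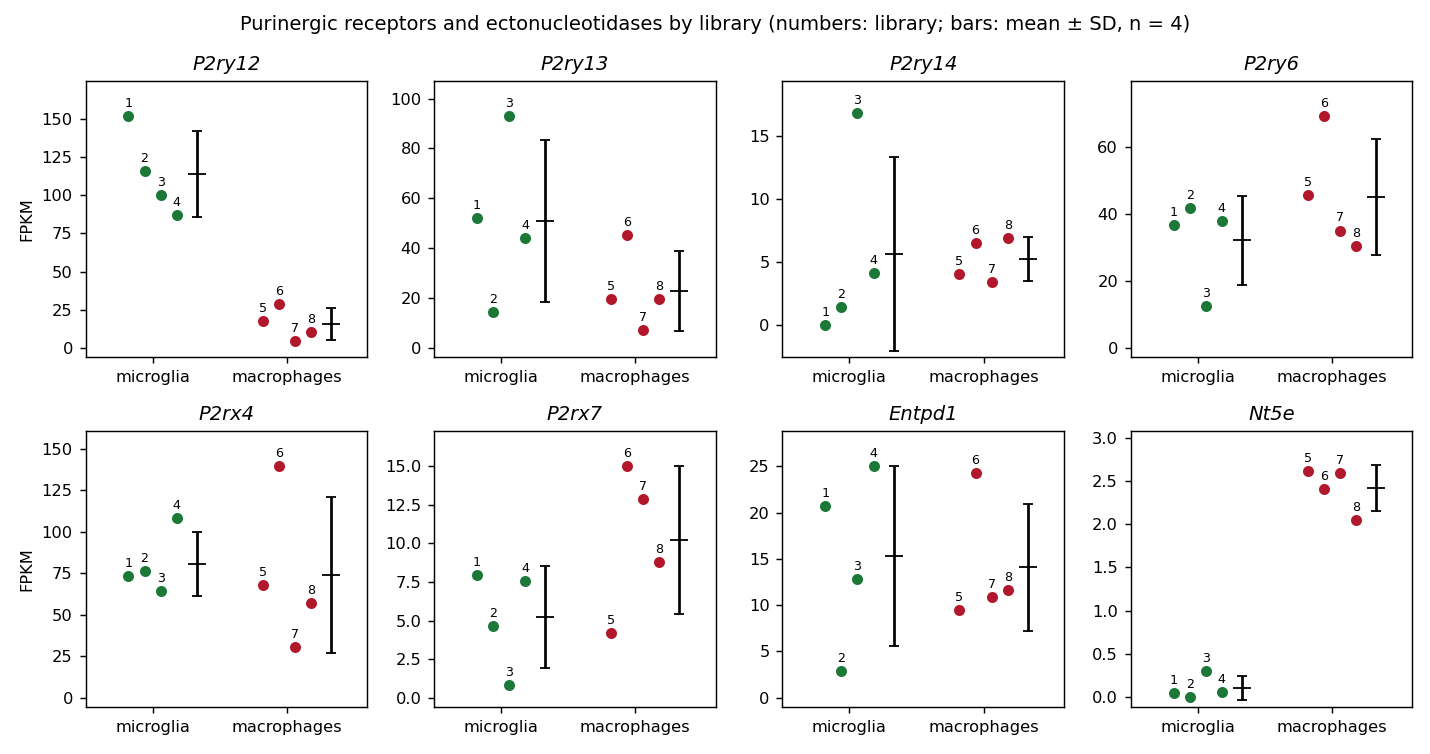
FPKM of each member in each library, with mean ± SD of 4 libraries as bars. Each gene has its own y scale, which includes 0 and starts below it, and numbers are library numbers. P2ry12 in microglia (86.8 to 152) lies above every macrophage library (4.54 to 29.0), Nt5e in macrophages (2.05 to 2.62) lies above every microglial library (0 to 0.302), and the other 6 genes overlap.

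P2ry12, the Gi-coupled ADP receptor of microglial processes, stood at 152, 116, 100.05 and 86.8 FPKM in microglia 1 to 4. In macrophages 5 to 8 its values were 17.3, 29.0, 4.54 and 10.6 FPKM. The lowest microglial library was still well above the highest macrophage library, macrophage 6. The mean was 7.40-fold lower in macrophages (log2 fold change -3.03 ± 0.56 SE, 95% interval -4.20 to -1.87, limma adjusted p = 0.00254). By mean level it ranked 430th of all symbols in microglia and 2828th in macrophages. P2ry12 remained detectable in all 4 macrophage libraries, whereas Sall1 and Sparc were at or near 0 there. P2ry12 was called without each library in turn, with adjusted p between 0.00135 and 0.0169 in these 8 fits. A covariate for Y-linked expression left its fold change at -2.84 but ended the call (limma adjusted p = 0.192). Microglia 4, at 86.8 FPKM, lies above all 4 macrophage libraries with which it shares low Y-linked RNA. That is 1 library, and the part of sex in the difference was not tested apart from the cell population. Platelets also express P2ry12. Their 8 markers summed to 0 to 4.12 FPKM in microglia and to at most 1.89 in macrophages, with Gp1ba at 0 in all libraries and 0 of 8 past the filter, and their part in the result was not tested.

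P2ry13, the ADP receptor encoded next to P2ry12, stood at 52.3, 14.3, 93.1 and 44.1 FPKM in microglia 1 to 4. In macrophages 5 to 8 it stood at 19.5, 45.5, 7.37 and 19.6 FPKM. Microglia 2 lay below 3 of the macrophage libraries, and macrophage 6 was above microglia 4. The difference did not pass the test (-1.10 ± 0.63 SE, 95% interval -2.41 to 0.21, adjusted p = 0.429). Limma with array weights, which downweight discordant libraries, called it lower (-1.28, adjusted p = 0.038; range 0.038 to 0.999 over 21 alternatives).

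P2ry14, a receptor for UDP-glucose and other UDP-sugars, had a listed value of 0 in microglia 1 and of 1.42, 16.8 and 4.12 FPKM in microglia 2 to 4. The macrophage libraries were closer to each other, at 3.98, 6.50, 3.38 and 6.88 FPKM. Microglia 3 was the highest of all 8 libraries and microglia 1 the lowest, so the macrophages fell within the microglial range (0.64 ± 0.79 SE, 95% interval -0.998 to 2.27, adjusted p = 0.757). At the approximate depth the microglial values correspond to about 0, 48, 540 and 138 fragments. Without microglia 3 the fold change was 1.37 (adjusted p = 0.408 in limma) and without microglia 1 it was -0.01 (adjusted p = 0.998).

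The chromosome 3 group also holds Gpr171, a receptor related in sequence to this P2Y subgroup, and the genes described here follow along the chromosome as Gpr171, P2ry14, P2ry13 and P2ry12. Gpr171 and P2ry12 were called in opposite directions. Gpr171 stood at 0.0411, 0, 0.177 and 2.20 FPKM in microglia 1 to 4 against 12.6, 8.27, 4.01 and 32.95 FPKM in macrophages 5 to 8, with no overlap (3.10 ± 0.73 SE, adjusted p = 0.0195). That call held in 12 of 20 alternatives, among them 4 of the 8 that leave out 1 library, and was lost with the Y-linked covariate (2.25, adjusted p = 0.703). The host gene Med12l stayed between 0.137 and 2.001 FPKM and the neighbour Igsf10 at 2.77 or below, both under the filter. Strand is not stated for these libraries, so reads of Med12l and of the receptor genes inside it cannot be told apart where their exons overlap.

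**Figure D2:**
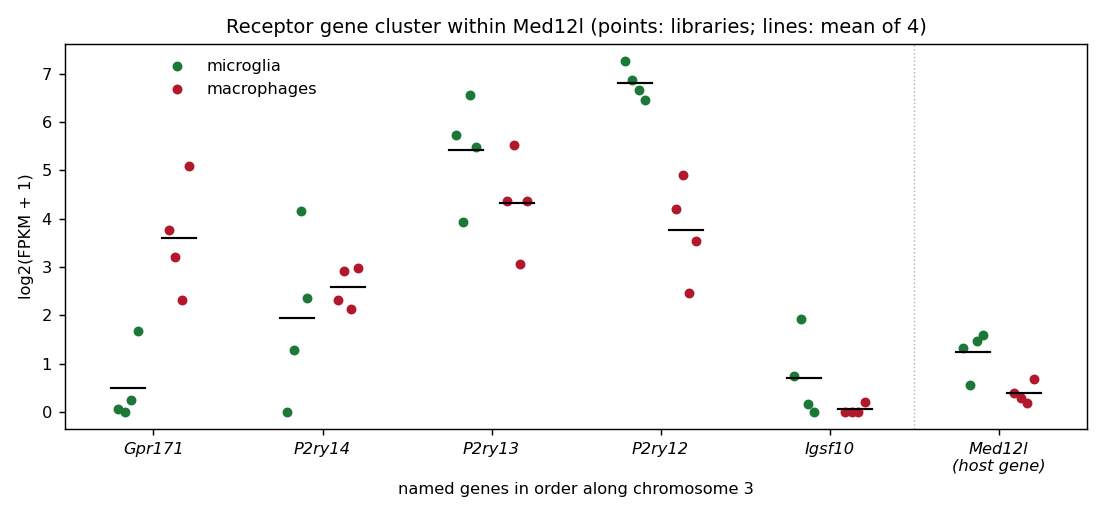
log2(FPKM + 1) of the named genes on mouse chromosome 3 around P2ry12 in their order along the chromosome, with the host gene Med12l at the right; points are libraries, lines the mean of 4. Macrophages lie above microglia at Gpr171, overlap them at P2ry14 and P2ry13, and lie below them at P2ry12.

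P2ry6, a Gq-coupled receptor for UDP known for triggering phagocytosis by microglia, stood at 36.7, 41.6, 12.4 and 37.7 FPKM in microglia 1 to 4. In macrophages 5 to 8 it stood at 45.7, 69.2, 34.99 and 30.5 FPKM. Apart from a low microglia 3 and a high macrophage 6, all libraries lay within 30.5 to 45.7 FPKM. The populations were not distinguished (0.54 ± 0.55 SE, 95% interval -0.60 to 1.67, adjusted p = 0.696), and without microglia 3 the fold change was 0.15 (adjusted p = 0.933).

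Of the ATP-gated channels, P2rx4, a channel of high ATP sensitivity found at the surface and in lysosomes, had the highest mean of the members over the 8 libraries, 77.2 FPKM, although P2ry12 was above it in microglia (means of 114 and 80.5 FPKM). It stood at 73.3, 76.4, 64.1 and 108 FPKM in microglia 1 to 4 and at 67.9, 139.9, 30.3 and 57.3 FPKM in macrophages 5 to 8. Macrophage libraries spanned the whole microglial range and beyond it on both sides (-0.30 ± 0.52 SE, 95% interval -1.38 to 0.77, adjusted p = 0.83). P2rx7, the low-affinity channel upstream of the inflammasome, stood at 7.95, 4.62, 0.812 and 7.57 FPKM in microglia and at 4.19, 15.1, 12.9 and 8.81 FPKM in macrophages. Macrophages 6, 7 and 8 were above every microglial library and macrophage 5 was below 3 of them (0.97 ± 0.71 SE, 95% interval -0.50 to 2.43, adjusted p = 0.559). P2rx7 was below its neighbour P2rx4 in FPKM, a level per transcript length, in every library, least so in macrophage 7 (30.3 against 12.9 FPKM).

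Entpd1, which encodes CD39, stood at 20.7, 2.85, 12.8 and 25.0 FPKM in microglia 1 to 4 and at 9.46, 24.3, 10.9 and 11.6 FPKM in macrophages 5 to 8. Microglia 2, the library with the fewest detected genes, was lowest and microglia 4 highest, so the macrophages lay inside the microglial range (0.10 ± 0.67 SE, 95% interval -1.27 to 1.48, adjusted p = 0.965). Without microglia 2 the fold change was -0.49 (adjusted p = 0.801). The sign of this small difference turned when that library was left out.

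Nt5e, which encodes CD73, was the least abundant member. Its microglial values were 0.0492, 0, 0.302 and 0.0543 FPKM, or about 2, 0, 20 and 4 fragments in microglia 1 to 4. Its macrophage values were 2.62, 2.40, 2.60 and 2.05 FPKM, or about 220, 176, 208 and 158 fragments in macrophages 5 to 8. The macrophage libraries agreed closely, with a coefficient of variation of 10.9% against 34.0% to 69.8% for the other 7 members in the same libraries. The difference was called (1.64 ± 0.44 SE, 95% interval 0.73 to 2.55, limma adjusted p = 0.0484), close to the threshold. The call held in 3 of 20 alternatives (adjusted p from 0.00214 to 0.518) and was lost without any 1 of the 8 libraries (0.0537 to 0.143), while the fold change without 1 library stayed between 1.59 and 1.72. With the Y-linked covariate it was 1.67 (limma adjusted p = 0.518), and microglia 4 (0.0543 FPKM) lay below every macrophage library. Here too microglia 4 is 1 library, and the part of sex was not tested. Since Nt5e passed the filter through the macrophage libraries alone, its inclusion among tested genes already required values of at least 1 FPKM there. Neither its direction nor its lack of overlap adds to the test. Without a filter the limma adjusted p of Nt5e was 0.179.

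Lymphocytes and endothelial cells can also express Nt5e, so markers of other cell types were read beside it. Of the neutrophil markers 6 were found, with sums of 0.196 to 0.767 FPKM in microglia and 41.8 to 235 in macrophages. S100a8, S100a9 and Retnlg were called higher. All had a listed 0 in every microglial library and so passed the filter through the macrophage libraries alone. As with Nt5e, neither their direction nor their lack of overlap adds to the test. The other genes of this list, Mpo, Camp and Cxcr2, were under the filter and did not follow S100a8, S100a9 and Retnlg. In macrophages Camp was at 0 and Mpo at 0.349 FPKM or below. Cxcr2 stood at 0.0831 to 1.44 FPKM in macrophages and at 0.12 to 0.237 in microglia. Photoreceptor markers summed to 16.6 to 133 FPKM in microglia and to 7.20 to 55.9 in macrophages, with 4 of 8 genes tested and 0 called. Endothelial markers summed to 0.555 to 3.39 FPKM in microglia and to 3.62 to 9.48 in macrophages, with Cldn5 at 0 in all libraries. T cell markers summed to 1.65 to 23.8 FPKM in microglia and to 1.73 to 3.67 in macrophages, B cell markers to 0 to 35.6 and 4.28 to 14.8, and dendritic cell markers to 0.0751 to 11.7 and 4.94 to 125. The endothelial, T cell, B cell and dendritic lists hold 8, 8, 5 and 7 genes. Of these 2, 1, 1 and 2 passed the filter, and none of those was called. The dendritic gene Ccr7, under the filter, was at 0 in all microglial libraries and at 0.165 to 62.4 FPKM in macrophages. Zbtb46, Xcr1, Clec9a and Siglecg were also under the filter, and their libraries overlapped between populations. The endothelial and neutrophil sums were higher in macrophages without overlap, while the T cell, B cell and dendritic sums overlapped between populations. The part of any of these cell types in the result was not tested.

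**Figure D3:**
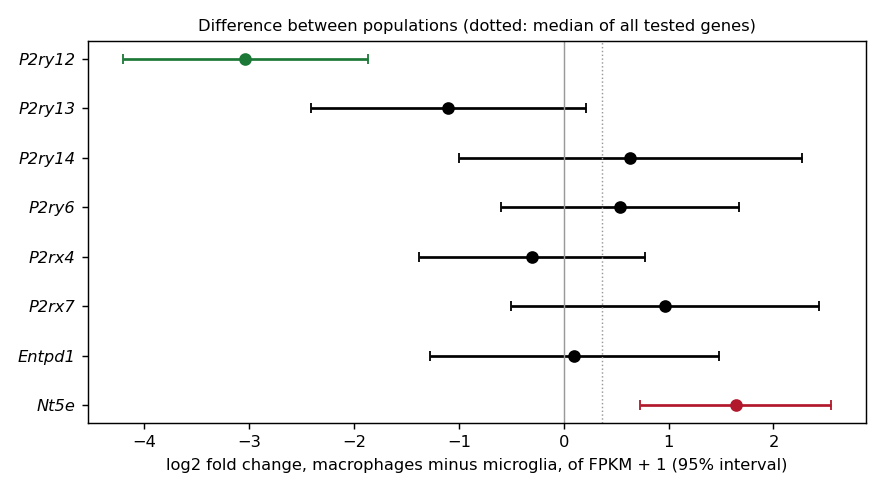
Log2 fold change of each member (macrophages minus microglia, of FPKM + 1) with its 95% interval from limma; colour marks the called genes, the solid line is 0 and the dotted line the median of all tested genes, 0.37. The intervals of P2ry12 (-4.20 to -1.87) and Nt5e (0.73 to 2.55) lie clear of 0, and those of the other 6 members include it.

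Apart from the pseudocount, ratios between 2 members of 1 library do not depend on how libraries are scaled. They show unequal change without saying which gene moved. Of 5 ratios compared, the 3 with P2ry12 differed between populations (exact two-sided permutation test p = 0.0286 each, adjusted p = 0.0476 over 5). That p is the smallest this test can give with 4 libraries against 4. The 3 ratios share P2ry12, whose libraries did not overlap between populations, so they are not separate results. The log2 ratio of P2ry12 to P2ry6 was 2.02, 1.46, 2.91 and 1.18 in microglia and -1.35, -1.23, -2.70 and -1.44 in macrophages. P2ry12 therefore exceeded P2ry6 in all 4 microglial libraries and lay below it in all 4 macrophage libraries. The ratio of P2ry12 to P2ry13 was 1.52, 2.94, 0.10 and 0.96 in microglia and -0.16, -0.63, -0.59 and -0.83 in macrophages, so the neighbours did not change equally; microglia 3 came close to the macrophages. The ratio of P2ry12 to P2ry14 averaged 4.86 ± 2.03 in microglia and 1.19 ± 0.87 in macrophages (SD, n = 4 each; exact permutation p = 0.0286). The ratios of P2rx4 to P2rx7 (3.92 ± 0.89 against 2.65 ± 1.10, exact permutation adjusted p = 0.171) and of Entpd1 to Nt5e (3.59 ± 1.21 against 2.05 ± 0.60, adjusted p = 0.107) overlapped. With a pseudocount of 0.1 in place of 1 the ratio of Entpd1 to Nt5e also passed (difference -3.70, exact permutation adjusted p = 0.0357).

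The make-up of the receptor transcripts was compared as shares of their sum. The 6 receptor genes summed to 254 to 322 FPKM in microglia and to 159, 305, 93.5 and 134 FPKM in macrophages 5 to 8. P2ry12 contributed 47.2%, 45.6%, 34.8% and 30.1% of that sum in microglia and 10.9%, 9.504%, 4.86% and 7.91% in macrophages. P2ry6 contributed 4.32% to 16.4% in microglia and 22.7% to 37.4% in macrophages. P2rx4 averaged 28.1% ± 7.15 in microglia and 41.0% ± 5.90 in macrophages (SD, n = 4 each). P2rx7 lay at 0.283% to 2.63% in microglia and at 2.64% to 13.8% in macrophages. The largest contributor was P2ry12 in microglia 1, 2 and 3, P2rx4 in microglia 4 and in macrophages 5, 6 and 8, and P2ry6 in macrophage 7. The shares of P2ry12, P2ry6 and P2rx7 did not overlap between populations (exact permutation p = 0.0286 each), but adjusted over the 6 shares none passed (adjusted p = 0.0571). An exact p of 0.0286 is the smallest possible with 4 libraries against 4, so 3 shares at that value cannot pass over 6. Shares of 1 sum depend on each other, so a smaller P2ry12 share enlarges the rest.

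**Figure D4:**
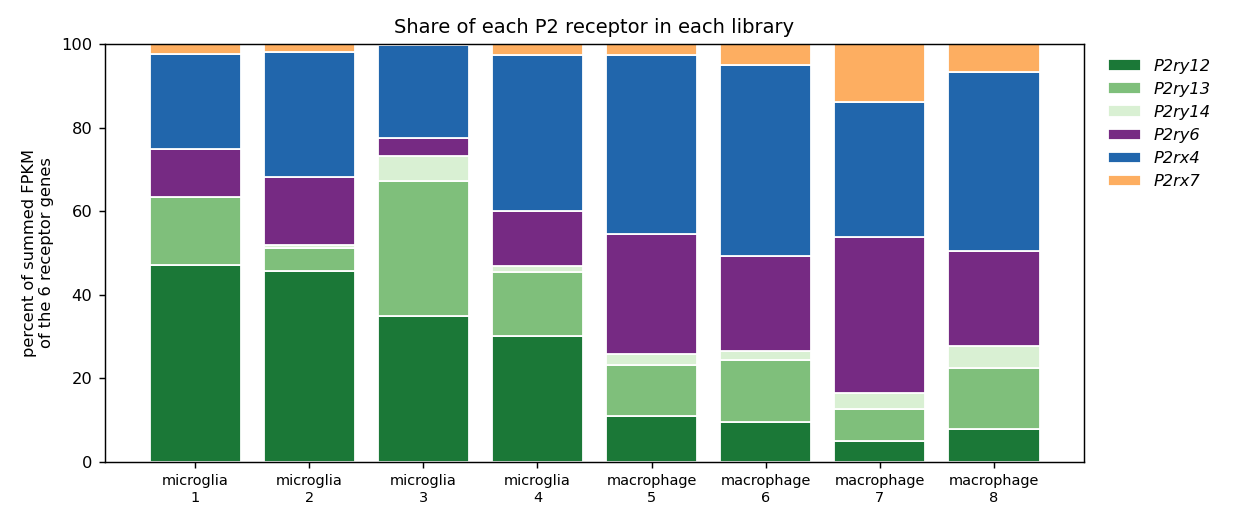
Percent of the summed FPKM of the 6 P2 receptor genes contributed by each gene, as 1 stacked bar per library. P2ry12 takes 30.1% to 47.2% in microglia and 4.86% to 10.9% in macrophages, where P2rx4 and P2ry6 take most of the sum.

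Other genes of purinergic signalling, 55 in 9 lists by role, were read from the same fit. Of these 26 passed the filter and 0 were called by limma (7 had an unadjusted p below 0.05; 19 of 26 fold changes were positive, with a median of 0.61 beside 0.37 for all genes). With array weights 6 were called: Entpd6, Il1b and Panx1 higher, and Gnas, P2rx1 and Pycard lower. The other 2 receptors tested were P2ry2, a receptor for ATP and UTP (2.17 ± 2.61 FPKM in microglia and 2.54 ± 2.14 in macrophages, SD, n = 4 each, adjusted p = 0.845), and P2rx1, an ATP channel best known from platelets (2.48 ± 1.54 and 0.323 ± 0.548, adjusted p = 0.202). P2ry1, P2ry4, P2rx2, P2rx3, P2rx5 and P2rx6 were under the filter, with P2rx6 at 0 in all libraries.

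None of the 4 adenosine receptors passed the filter. Adora3 stood at 0.19 to 6.35 FPKM in microglia and at 0.353 to 0.896 in macrophages. Adora2a and Adora2b, the Gs-coupled receptors of adenosine, were at a listed 0 in all microglial libraries and reached at most 2.18 and 2.60 FPKM in macrophages. Adora1 reached 0.196 FPKM in microglia and 2.21 in macrophages.

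Among the enzymes, Enpp1, which cleaves ATP to AMP and pyrophosphate, had a microglial mean of 6.12 ± 5.55 FPKM and a macrophage mean of 6.69 ± 3.01 (SD, n = 4 each, adjusted p = 0.783). Of the other ectonucleotidases, Cd38 and Bst1 were tested and not called, and Entpd2, Entpd3, Entpd8, Enpp2, Enpp3, Alpl and Acpp were under the filter, Entpd2 at 0 throughout. Entpd6, of the intracellular family, had means of 2.09 ± 3.25 and 5.801 ± 3.92 FPKM (adjusted p = 0.377), and Entpd7 was under the filter. Pnp, purine nucleoside phosphorylase, was the most abundant gene of adenosine handling at 26.4 ± 7.08 and 42.3 ± 29.1 FPKM (adjusted p = 0.726). Ada, adenosine deaminase, which removes the adenosine that CD73 makes, had listed values of 0 in microglia 1 to 3, 1.03 FPKM in microglia 4 and 1.21, 7.501, 4.901 and 1.18 FPKM in macrophages 5 to 8, and did not pass (1.72 ± 0.55 SE, adjusted p = 0.114). Dpp4, Slc29a2, Slc28a2 and Slc28a3 were under the filter.

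On the side of ATP release, Panx1, a channel that lets ATP out of cells, had a microglial mean of 1.72 ± 2.31 FPKM and a macrophage mean of 5.996 ± 3.78 (adjusted p = 0.306). Slc17a9, the transporter that loads nucleotides into vesicles, had a listed 0 in all microglial libraries against 0.86, 2.23, 1.17 and 1.06 FPKM in macrophages 5 to 8, under the filter. Panx2, Panx3, Gja1 and Lrrc8a were also under it. Of the G proteins, Gnas, the alpha subunit of Gs, had the highest mean over the 8 libraries, with 391 ± 90.6 FPKM in microglia and 139 ± 64.4 in macrophages, without overlap (SD, n = 4 each, -1.58 ± 0.47 SE, adjusted p = 0.0806). Gnas was called lower under all 4 rescalings and without macrophage 6. Gnai2, the main Gi subunit through which P2Y12 signals, averaged 110 ± 38.6 and 213 ± 101 FPKM (adjusted p = 0.427), so the partner of P2Y12 was not called lower with it; Gnai1 was under the filter. Downstream of P2X7, Pycard, the inflammasome adaptor ASC, averaged 76.2 ± 10.4 and 39.1 ± 26.6 FPKM (adjusted p = 0.311) and Il1b 15.4 ± 20.1 and 57.2 ± 50.5 (adjusted p = 0.163, called higher without microglia 2). Kcnk13, the potassium channel THIK-1 that acts with P2Y12 in microglial surveillance, averaged 9.25 ± 6.82 and 9.88 ± 3.45 FPKM (adjusted p = 0.856), and Nlrp3 was under the filter.

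**Figure D5:**
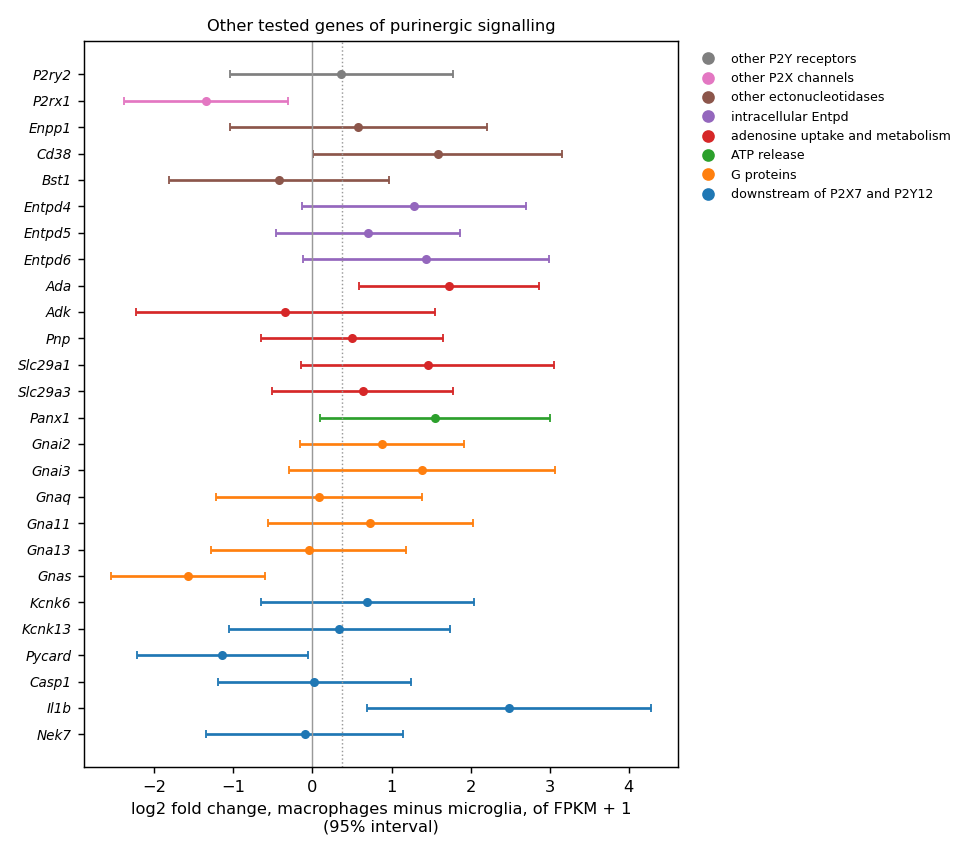
Log2 fold change (macrophages minus microglia, of FPKM + 1) with its 95% interval for the 26 tested genes of purinergic signalling outside the 8 members, coloured by role; the dotted line is the median of all tested genes, 0.37. None was called, and Gnas (-1.58) and Il1b (2.48) lie farthest from 0 on either side.

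The genes whose log2(FPKM + 1) followed a member most closely over the 8 libraries were sought among the 3170 tested genes whose mean reached 10 FPKM. For P2ry12 they were the tetraspanin Cd9 (Pearson r = 0.992), the annexin Anxa3 (r = 0.989) and Gnas (r = 0.977), of which Cd9 and Anxa3 were also called lower in macrophages. For P2rx4 they were Vti1b (r = 0.971), Tprgl (r = 0.967) and Capzb (r = 0.965). For Entpd1 they were Eci2 (r = 0.987), Cd302 (r = 0.966) and Limd2 (r = 0.966). None of these last 6 was called. These values describe 8 points that share libraries, depth and, for P2ry12, the difference between the populations.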

How the data were processed

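RNA of 4 microglial and 4 infiltrating-macrophage libraries was analysed, grouped by the tissue subtype in the labels. The submitters' processing notes name Cufflinks 2.1.1, bcl2fastq 1.8.4 and the mm9 build; no aligner or annotation is given in the sources used here. The authors deposited FPKM per gene (23021 rows, 22558 symbols), per the file headers. Rows of 1 symbol were summed (no member had more than 1), and 9 symbols with a failed estimate were left out. Of 64 member values, 20 lay outside the interval deposited with them, so these intervals were not used.

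FPKM removes depth and length but not composition, and it is not a count, so limma 3.58.1 (R 4.3.3; intensity trend, no covariate) was run on log2(FPKM + 1) for genes that reached 1 FPKM in 4 or more libraries. It was tested on simulated data. Depth was approximated by taking the most frequent low product of FPKM and transcript length (GENCODE M1, less 150 bases, transcripts of at least 800) as 1 fragment; no test used it. Ratios and shares were compared with exact permutation tests in scipy 1.17.1. Promoters are from RefSeq (GRCm38.p6), matched to mm9 by exact sequence. Named are all members, the called and the most abundant tested gene of each list, genes under the filter, position neighbours (some are not reported here) and the 3 genes most alike to P2ry12, P2rx4 and Entpd1; other genes (such as Ada, Gnas, Slc17a9, Il1b and Kcnk13) were chosen after their values were seen. Members and lists were chosen with earlier results of these data known. The alternatives were 2 pseudocounts, 2 filters, 4 scalings, 3 fitting options, left-out libraries and a term for Y-linked expression.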

Additional observations from a re-analysis of the deposited data

Results flagged for a closer look

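Among 16 groups of 4 libraries (8 genes in each population), 1 held a library far from the others: P2ry6 in microglia 3 stood at 12.4 FPKM against 36.7 to 41.6 in microglia 1, 2 and 4. The gap took 0.894 of the group's range on the log2(FPKM + 1) scale, above Dixon's critical value for 4 samples. Chance flags about 1 group in 20. In the same library P2rx7 was the lowest of all 8 libraries (0.812 FPKM), P2ry13 and P2ry14 were the highest (93.1 and 16.8 FPKM), and erythroid markers summed to 2437 FPKM.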

How the results depend on the processing

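P2ry12 was lower in all 22 alternatives (log2 fold change -3.59 to -2.60) and called in 19 of 21 with an adjusted p; it was not called without a filter (0.0838) or with the term for Y-linked expression (0.192). Nt5e was higher in all 21 it entered (0.90 to 3.85). The number of members called, 2, was 1 with a pseudocount of 0.1, a filter of 5 FPKM, upper-quartile, median-of-ratios or quantile scaling, no intensity trend, robust empirical Bayes, without microglia 2 and 3, and without any 1 library (1 to 1), and 0 without a filter or with the term for Y-linked expression. Array weights raised the number to 3, with P2ry13 also called. Genes called over the whole table, 219, came to 136 with a pseudocount of 0.1, 50 without a filter, 132 with a filter of 5 FPKM, 339 with equal sums, 1075 with array weights, 34 with the term for Y-linked expression and 119 to 258 without 1 library (119 without macrophage 8, 122 without macrophage 5). Other pathway genes called, 0, came to 1 under each of the 4 scalings, 6 with array weights and 0 to 1 without 1 library. Rescaling moved the median log2 fold change of all genes from 0.37 to 0.47 (equal sums), 0.13 (median of ratios) and -0.03 (upper quartile and quantile), and the share of higher calls from 70.3% to 73.2%, 54.1%, 49.3% and 53.4%. P2ry12 was called lower under each.

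Directions that turned belonged to members not called: P2ry14 (-0.25 with the term for Y-linked expression; -0.012 to 1.37 without 1 library), P2ry6 (-0.0074, upper quartile), P2rx7 (-0.079, array weights), P2rx4 (-0.67 to 0.050 without 1 library) and Entpd1 (-0.38 upper quartile, -0.18 median of ratios, -0.26 quantile, -0.77 array weights, -0.75 without microglia 2 and 3, -0.49 to 0.43 without 1 library). The P2ry13 share moved by -8.88 to 0.0499 percentage points without 1 library. Of the 5 ratios, 3 passed, and 0 (0 to 0) without 1 library, where the exact test cannot go below p = 0.0571; the cause of other changes was not tested. No paired analysis was possible because the 2 groups share no replicate number. Depth limits Nt5e in microglia, at about 0 to 20 fragments.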
